A study of Rattus norvegicus with 26 samples.

Results

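The genes examined here are 10 named genes of the endothelium and the blood-spinal cord barrier: Cldn5, Ocln and Tjp1 of the tight junction, Pecam1 and Cdh5 of the contacts between endothelial cells, Slc2a1, Abcb1a and Mfsd2a of transport, Plvap of fenestrated vessels, and Kdr, a receptor for VEGF. Their rows were found by gene name, and 8 of the 10 had a row in the table of 32883 genes. Of these 8, 7 had enough counts to be tested, and Cldn5 had no count in any library. Pecam1 and Abcb1a had no row by name and were not analysed here.

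RNA sequencing was carried out on 5 mm segments of spinal cord from female Sprague-Dawley rats, all labelled with an age of 70 days and weighing 250 g, in 26 libraries and 8 groups. Intact (n = 4) was untreated by its label and intact or sham by the methods of the study. In the other groups the thoracic cord (T10) was compressed with an aneurysm clip of 60 g for 1 min. The sub-SCI group (n = 3) was taken at the subacute phase, 7 days after injury, when the others received hUC-MSCs (mesenchymal stem cells of human umbilical cord, +MSC) or phosphate-buffered saline (+PBS) intrathecally. The +PBS group was sampled at 1 (n = 3), 2 (n = 2) and 4 (n = 4) weeks post-transplantation (wpt) and the +MSC group at 1 (n = 3), 2 (n = 3) and 4 (n = 4) wpt. These numbers follow the labels, while the methods count the repeats of the groups at the middle time point differently. The methods describe daily cyclosporin A, an immunosuppressant, for the rats.

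The barrier of the spinal cord is formed by endothelial cells that are sealed to one another by tight junctions, carry few fenestrae and let few vesicles pass from blood to tissue. Pericytes, a basement membrane and the endfeet of astrocytes surround these vessels, and Wnt signals from the neural tissue maintain the barrier state of the endothelium. The barrier is known to open after a contusion or compression of the cord, when vessels are lost and new ones sprout.

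The counts were scaled to CPM, the usual unit of counts relative to the size of the library, with TMM factors, and differences are log2 fold changes, tested by edgeR's quasi-likelihood method and adjusted after Benjamini-Hochberg over 17990 genes. A gene was called at an adjusted p under 0.05. Total counts per library lay between 19496602 and 43468509. The tissue carried the markers of its label: in Intact, 12 markers of neurons summed to between 11993 and 14376 CPM and 10 markers of oligodendrocytes to between 51591 and 58374 CPM. The replicate 1 libraries stood apart in several groups: the summed level of 10 fibroblast markers was 241 CPM in replicate 1 of Intact and 1405 CPM in replicate 1 of +PBS-4w, each the lowest of its group, and the summed neuron markers of the latter were 7571 CPM, the highest of its group. Some of the log2 fold changes are given with and without the replicate 1 libraries. The correlations and the counts of gene lists are given with all libraries only. How far the replicate 1 libraries set these correlations and counts was not tested. Leaving the replicate 1 libraries out leaves +PBS-2w with 1 library. Each comparison with that group then takes its spread from the other groups. Since whole tissue was sequenced, fewer cells of a type and less RNA per cell cannot be told apart. The methods call the libraries of a group biological replicates, while the labels do not say that each came from its own animal, and p-values measure the spread between these libraries. Whether the ranges of 2 groups overlap is given as description only. The share of all genes with separate ranges was not counted, and ranges of so few libraries can separate by chance, most readily against +PBS-2w.

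Per kilobase of gene model, the order of the 7 genes in Intact was Slc2a1 with 97.1 ± 16.8 CPM per kb (SD, n = 4), Tjp1 with 37.9 ± 3.02, Mfsd2a with 27.8 ± 2.93, Cdh5 with 7.03 ± 2.15, Plvap with 6.16 ± 1.32, Ocln with 4.36 ± 0.70 and Kdr with 3.46 ± 0.86. Among neighbours in this order, the ranges of Cdh5 and Plvap overlapped, as did those of Ocln and Kdr. In sub-SCI, Cdh5 stood at rank 3 with 29.2 ± 11.3 CPM per kb (n = 3), its range overlapping that of Tjp1 above it, and Mfsd2a at rank 4 with 9.67 ± 2.95. In +MSC-1w, Cdh5 was at rank 3 with 16.7 ± 1.31 CPM per kb (n = 3) and Mfsd2a at rank 4 with 11.1 ± 1.92. In +MSC-2w, Mfsd2a was at rank 3 with 17.1 ± 2.65 CPM per kb (n = 3) and Cdh5 at rank 5 with 6.04 ± 2.84. In +MSC-4w, Mfsd2a at rank 3 (19.8 ± 11.2, n = 4) and Cdh5 at rank 4 (16.9 ± 6.87) had overlapping ranges. Slc2a1 and Tjp1 kept ranks 1 and 2 in all 8 groups.

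**Figure D1:**
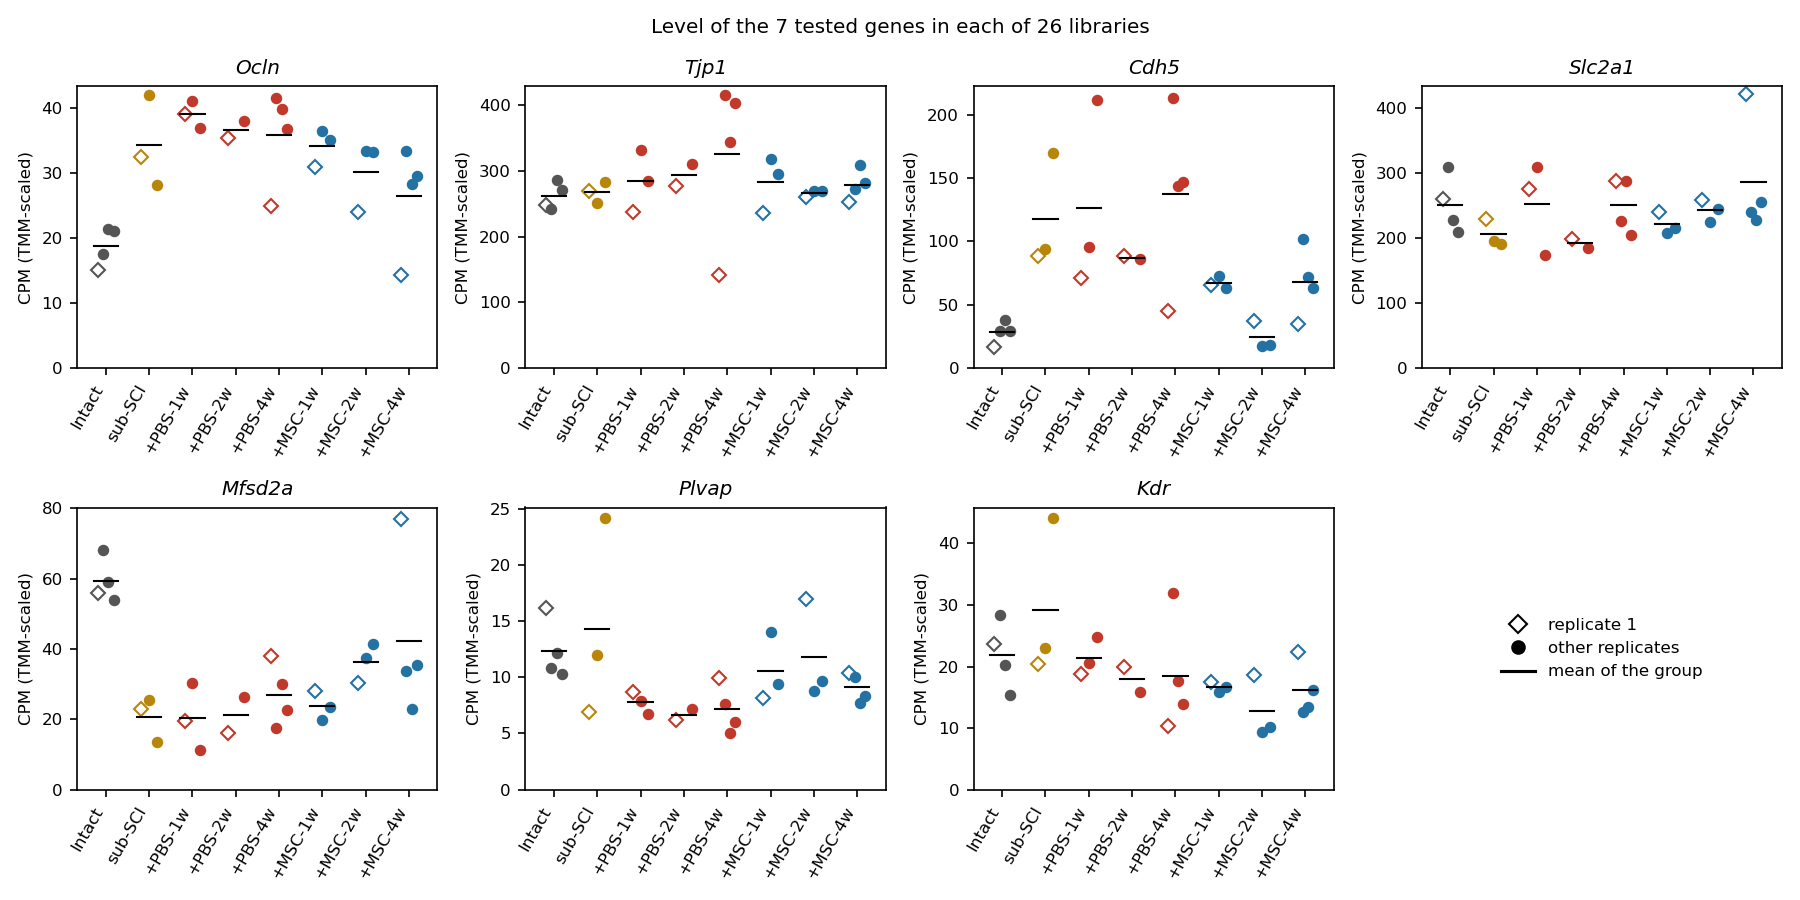
Levels of the 7 tested genes in each library (vertical axis, TMM-scaled CPM from 0) by group (horizontal axis); open diamonds are the replicate 1 libraries, filled circles the other replicates and lines the group means. Ocln and Cdh5 sit higher and Mfsd2a lower in sub-SCI and the +PBS groups than in Intact, while Tjp1, Slc2a1 and Kdr overlap in most groups, with Slc2a1 of +MSC-4w replicate 1 at 422 CPM.

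Of the junction genes, Ocln rose after injury and Tjp1 passed the test in no comparison with all libraries. Ocln encodes occludin, a membrane protein of tight junction strands. Its level in Intact was 15.1, 17.5, 21.4 and 21.0 CPM. It was 32.4, 41.9 and 28.2 CPM in sub-SCI, 39.1, 41.0 and 36.9 CPM in +PBS-1w and 35.3 and 38.0 CPM in +PBS-2w. In +PBS-4w it was 24.9, 41.5, 39.8 and 36.7 CPM. Every library of these groups lay above every Intact library, the nearest being replicate 1 of +PBS-4w. The log2 fold changes against Intact were 0.86 ± 0.22 (SE, adjusted p = 0.00173 by edgeR's quasi-likelihood test) in sub-SCI, 1.06 ± 0.22 (adjusted p = 0.00037) in +PBS-1w, 0.96 ± 0.24 (adjusted p = 0.00396) in +PBS-2w and 0.93 ± 0.21 (adjusted p = 0.000742) in +PBS-4w, which is 1.82- to 2.08-fold. These 4 comparisons share the Intact libraries. In them 3, 3, 3 and 4 of the 7 genes were called, where 61.4%, 53.2%, 36.7% and 52.6% of all genes tested were called. Ocln went with 12 markers of microglia and macrophages (median r 0.74 over the 26 libraries, 0.37 after the group means were taken out) and 10 fibroblast markers (median r 0.64), and against 12 neuron markers (median r -0.64). The summed microglia and macrophage markers, none at 0, ran from 332 to 669 CPM in Intact, 9774 to 11645 CPM in sub-SCI and 5538 to 9421 CPM in +PBS-4w, and their part in the level of Ocln was not tested.

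In the +MSC groups Ocln lay between the Intact and +PBS levels. It was 30.9, 36.4 and 35.0 CPM in +MSC-1w, 23.9, 33.3 and 33.2 CPM in +MSC-2w and 14.3, 33.4, 28.3 and 29.5 CPM in +MSC-4w. The ranges did not overlap with those of +PBS at 1 and 2 wpt and overlapped at 4 wpt, where replicate 1 of +MSC-4w fell below all Intact libraries. With all libraries, Ocln was not called against +PBS at any of these weeks. Averaged over the 3 weeks, the log2 fold change of +MSC vs. +PBS was -0.30 ± 0.14 (adjusted p = 0.107 by edgeR's quasi-likelihood test), which did not pass the test. With a term for replicate 1 it was -0.34 with an adjusted p of 0.0184, the lowest among 34 alternatives whose highest was 0.199. It was also called without +PBS-4w replicate 1 (-0.37, adjusted p = 0.029). In all, 3 of the 34 alternatives called it. Without the replicate 1 libraries, with 1 library left in +PBS-2w, it was -0.23. Against Intact, Ocln rose in +MSC-1w (0.86 ± 0.22, adjusted p = 0.00494) and +MSC-2w (0.68 ± 0.22, adjusted p = 0.0329), while +MSC-4w had 0.49 ± 0.21 (adjusted p = 0.0717 by the same edgeR test). The call in +MSC-2w was lost without Intact replicate 1 (0.63, adjusted p = 0.0858), Intact replicate 2 (0.68, adjusted p = 0.065), +MSC-2w replicate 2 (0.60, adjusted p = 0.132) or +MSC-2w replicate 3 (0.61, adjusted p = 0.131), and Ocln was called in +MSC-4w without the replicate 1 libraries (0.62, adjusted p = 0.00361), without +MSC-4w replicate 1 (0.70, adjusted p = 0.00376) or without +PBS-4w replicate 1 (0.52, adjusted p = 0.037). In +MSC-4w vs. +PBS-4w, where Ocln had -0.44 (adjusted p = 0.207), it was called without +PBS-4w replicate 1 (-0.60, adjusted p = 0.0483).

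Tjp1 encodes ZO-1, the scaffold that links junction proteins to actin. It was 248, 242, 287 and 271 CPM in Intact and 269, 251 and 283 CPM in sub-SCI, overlapping ranges with a log2 fold change of 0.03 ± 0.22 (adjusted p = 0.912 by edgeR's quasi-likelihood test). In +PBS-4w, replicate 1 stood at 142 CPM and the other libraries at 415, 344 and 403 CPM. Without the replicate 1 libraries the log2 fold change of +PBS-4w vs. Intact was 0.54 (adjusted p = 0.000481 by edgeR's quasi-likelihood test), against 0.32 ± 0.21 (adjusted p = 0.208) with all libraries. The log2 fold change of +MSC-4w vs. +PBS-4w likewise went from -0.23 ± 0.21 (adjusted p = 0.541) to -0.42 (adjusted p = 0.0224). With +PBS-4w replicate 1 alone left out, these values were 0.61 (adjusted p = 0.000117) and -0.50 (adjusted p = 0.00737), and the average of +MSC vs. +PBS over the 3 weeks went from -0.12 ± 0.14 (adjusted p = 0.556) to -0.23 (adjusted p = 0.0173). Tjp1 was thus called higher in +PBS-4w than in Intact and in +MSC-4w only in these fits, 2 of 35 alternatives for each comparison. Both fits leave out +PBS-4w replicate 1, whose own low value sets it apart, so they are no independent evidence of a difference. The remaining junction gene, Cldn5, encodes the main claudin of barrier endothelium and had no count in any of the 26 libraries. A count of 3 would have been between 0.0656 and 0.164 CPM, and no level above this was detected in the gene model used. In the order of genes of the rat assembly GRCr8 (RefSeq), 8 of the 12 nearest genes had a row. Gp1bb, 3 places after Cldn5, was also at 0, and the other 7 had at least 15 counts in every library. What leaves Cldn5 without counts was not tested.

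Cdh5 had the largest fitted change of the 7 genes in sub-SCI and the +PBS groups vs. Intact and in the average of +MSC vs. +PBS. It encodes VE-cadherin, the cadherin of endothelial adherens junctions. It was 16.8, 29.5, 37.7 and 29.2 CPM in Intact and 88.1, 94.3 and 170 CPM in sub-SCI. In the vehicle groups it was 71.2, 96.0 and 212 CPM at 1 wpt, 88.5 and 86.1 CPM at 2 wpt, and 45.3, 213, 144 and 147 CPM at 4 wpt. All of these libraries were above all Intact libraries, with replicate 1 of +PBS-4w the closest. The log2 fold changes against Intact were 2.05 ± 0.44 (SE, adjusted p = 0.00039 by edgeR's quasi-likelihood test) in sub-SCI, 2.16 ± 0.44 (adjusted p = 0.000334) in +PBS-1w, 1.62 ± 0.48 (adjusted p = 0.0115) in +PBS-2w and 2.28 ± 0.43 (adjusted p = 0.00014) in +PBS-4w, or 3.08- to 4.85-fold. Without the replicate 1 libraries they were 2.08, 2.28, 1.44 and 2.39, all still called. The call in +PBS-2w was lost without +PBS-2w replicate 1, which leaves that group with 1 library assumed to vary like the others (1.63, adjusted p = 0.0783).

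With hUC-MSCs, Cdh5 was lower than with vehicle. It was 65.3, 73.0 and 62.9 CPM in +MSC-1w, 37.5, 17.2 and 18.2 CPM in +MSC-2w and 35.0, 102, 72.2 and 63.0 CPM in +MSC-4w. At 2 wpt the +MSC libraries were all below both +PBS libraries and overlapped with Intact, while at 1 and 4 wpt the +MSC and +PBS ranges overlapped. The average over the 3 weeks was a log2 fold change of -1.26 ± 0.27 (adjusted p = 0.00327 by edgeR's quasi-likelihood test), 2.39-fold lower. Cdh5 was the 1 of 7 genes called in this comparison, where 23.2% of all genes tested were called. It was called under all 34 alternatives, with log2 fold changes from -1.51 to -1.06 and adjusted p from 7.36e-05 to 0.0167.

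At the single weeks no member was called between +MSC and +PBS, where 0.1%, 0% and 4% of all genes tested were called at 1, 2 and 4 wpt by edgeR's quasi-likelihood test. At 2 wpt 2219 genes (12.3%) had an unadjusted p under 0.05, and DESeq2 called 196 genes in a fit of all libraries and 1255 in a fit of the 2 groups. The log2 fold changes of Cdh5 were -0.91 ± 0.47 (adjusted p = 0.316 by this edgeR test), -1.84 ± 0.52 (adjusted p = 0.203) and -1.01 ± 0.41 (adjusted p = 0.145). Without the replicate 1 libraries that at 2 wpt, with 1 library left in +PBS-2w, was -2.29 (adjusted p = 0.047) and that at 4 wpt -1.08 (adjusted p = 0.0328). At 1 wpt it was -0.32 (adjusted p = 0.895) without +PBS-1w replicate 3, the library at 212 CPM, and at 4 wpt -1.32 (adjusted p = 0.0208) without +PBS-4w replicate 1. Over their alternatives the adjusted p ran from 6.27e-06 to 1.00 at 2 wpt and from 0.0208 to 0.372 at 4 wpt. The week dependence of the +MSC vs. +PBS difference was called for 0% of all genes and none of the 7 (edgeR's quasi-likelihood test, adjusted p of Cdh5 1.00 and unadjusted p 0.364). At an unadjusted p under 0.05 it held for 481 genes (2.67%) and for no member. Against Intact, Cdh5 was higher in +MSC-1w (1.24 ± 0.44, adjusted p = 0.0334) and +MSC-4w (1.27 ± 0.41, adjusted p = 0.0242), and -0.22 ± 0.45 (adjusted p = 0.775) in +MSC-2w. The last value was -0.85 (adjusted p = 0.0783) without the replicate 1 libraries, and with 1 library left out it ran from -0.68 without +MSC-2w replicate 1 to -0.02 without +MSC-2w replicate 2. The call in +MSC-1w was lost without Intact replicate 1, 2 or 4 or without any 1 of the +MSC-1w libraries, with adjusted p from 0.054 to 0.0894, and that in +MSC-4w without Intact replicate 1 (1.11, adjusted p = 0.0745) or +MSC-4w replicate 2 (1.00, adjusted p = 0.0984). Of the 7 genes, 3, 1 and 1 were called in +MSC-1w, +MSC-2w and +MSC-4w vs. Intact, against 33.2%, 19.1% and 31.2% of all genes.

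**Figure D2:**
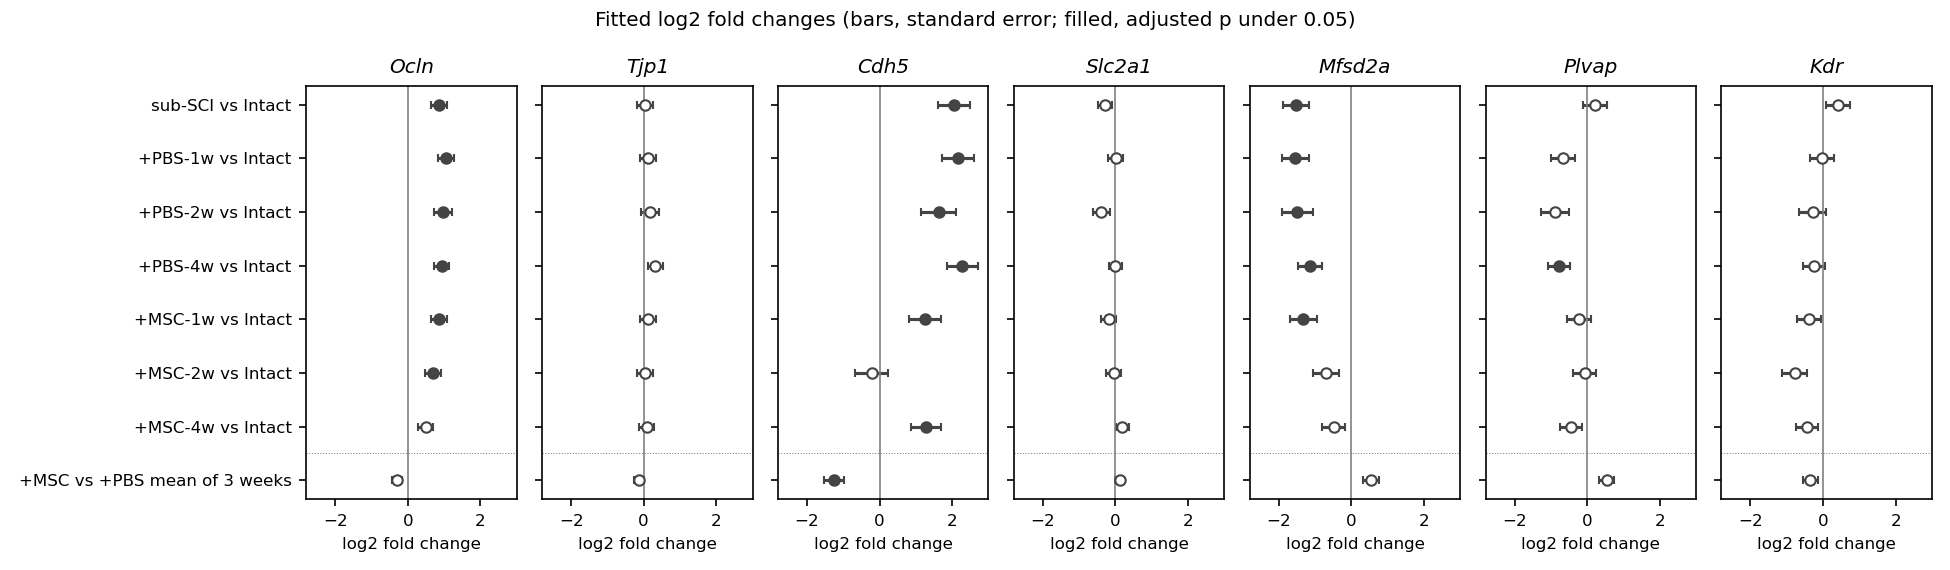
Log2 fold change (horizontal axis) of each gene in the comparisons with Intact and, under the dotted line, in +MSC vs. +PBS averaged over 3 weeks; bars are standard errors and filled points have an adjusted p under 0.05. Against Intact, Cdh5 is at 2.05 in sub-SCI, 1.24 in +MSC-1w, -0.22 in +MSC-2w and 1.27 in +MSC-4w. Tjp1, Slc2a1 and Kdr have no filled point.

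Fibroblast markers and genes of the basement membrane moved with Cdh5. The summed level of 10 fibroblast markers, none of them at 0, ran from 241 to 1471 CPM in Intact, from 8484 to 20453 CPM in sub-SCI, from 1405 to 5722 CPM in +PBS-4w, from 674 to 1038 CPM in +MSC-2w and from 1307 to 3230 CPM in +MSC-4w. Of these markers 9 of 10 rose in sub-SCI vs. Intact (median log2 fold change 3.67, all genes -0.02), where 61.4% of all genes were called. In +MSC vs. +PBS over the 3 weeks 9 of 10 fell (median -1.19), where 23.2% of all genes were called. Over the 26 libraries, which share 8 groups, the median Pearson r of Cdh5 with these markers was 0.89, and 0.78 after the group means were taken out. With the 8 tested genes of the vascular basement membrane it was 0.90 in both cases, with 18 other genes of endothelial identity 0.47, ranging from -0.70 to 0.81, and with 13 markers of pericytes and vascular smooth muscle 0.34, ranging from -0.02 to 0.89. The part of fibroblasts in the level of Cdh5 was not tested.

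The genes whose log2 CPM was most like that of Cdh5 over the 26 libraries were Foxc1, with a Pearson r of 0.98, Arhgap29 and Pear1 with 0.98 each, and Nid2 and Efnb1 with 0.97 each. Foxc1 is a forkhead factor of mesenchyme, meninges and developing vessels, and Nid2 is a nidogen of basement membranes. Foxc1 lay between 5.40 and 19 CPM in Intact, 67.6 and 147 CPM in sub-SCI and 7.18 and 24.7 CPM in +MSC-2w. As for Cdh5, sub-SCI lay above Intact without overlap and +MSC-2w overlapped with Intact.

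**Figure D3:**
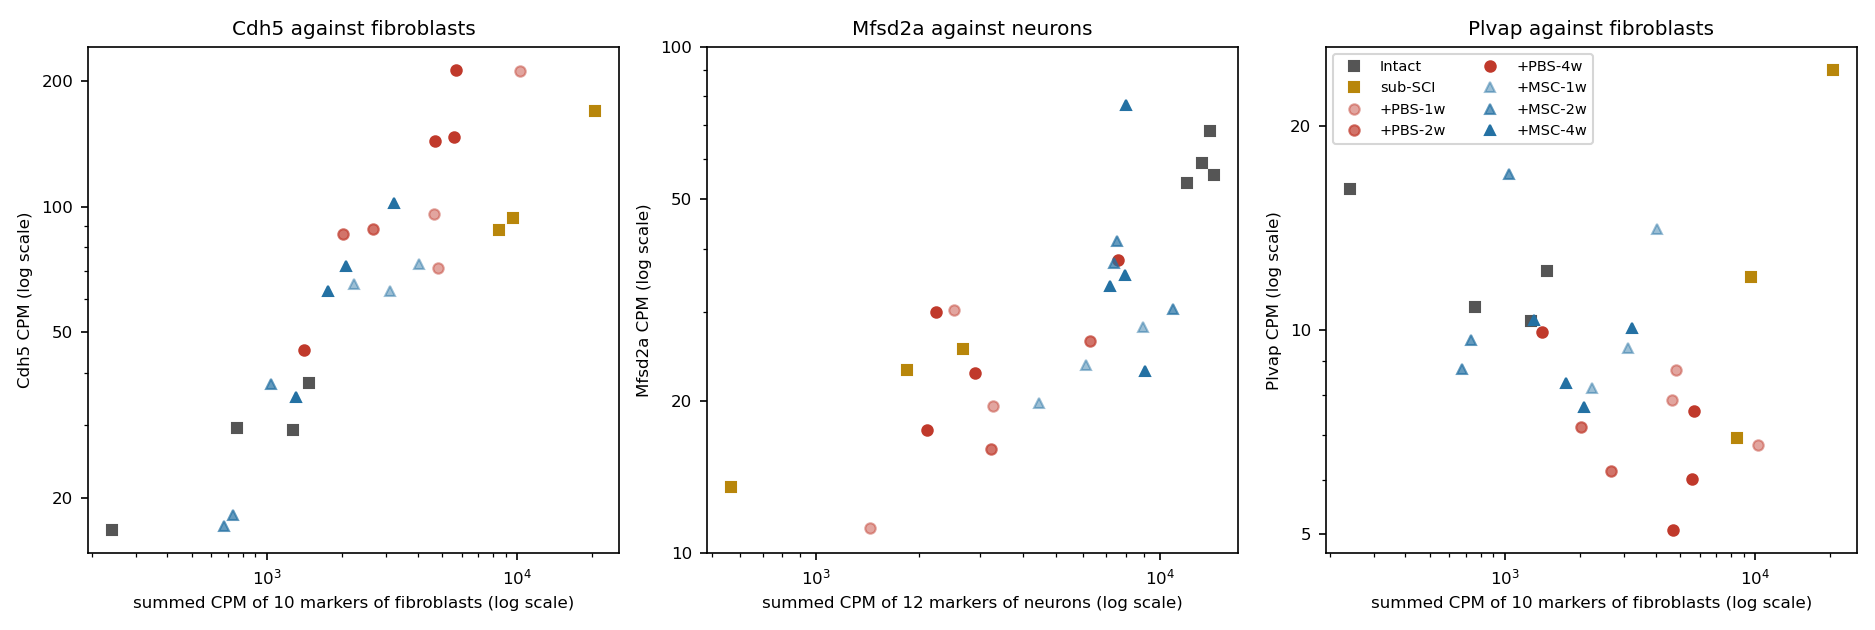
Levels of Cdh5, Mfsd2a and Plvap per library (vertical axes, CPM, log scale) against the summed CPM of 10 fibroblast or 12 neuron markers (horizontal axes, log scale), coloured by group. Cdh5 climbs with the fibroblast markers (median r 0.89 over the single markers) and Mfsd2a with the neuron markers (median r 0.81), while Plvap follows the fibroblast markers little (median r -0.20).

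Of the transporters, Mfsd2a fell after injury and Slc2a1 passed the test in no comparison with all libraries. Mfsd2a carries lysophosphatidylcholine with docosahexaenoic acid into neural tissue and holds back transcytosis in barrier endothelium. It was 56.0, 68.1, 59.0 and 54.0 CPM in Intact, and 23.0, 25.4 and 13.5 CPM in sub-SCI. It was 19.5, 30.3 and 11.2 CPM in +PBS-1w, 16.0 and 26.3 CPM in +PBS-2w, and 38.0, 17.5, 30.0 and 22.7 CPM in +PBS-4w. All of these injured libraries lay below all Intact libraries. The log2 fold changes against Intact were -1.52 ± 0.37 (SE, adjusted p = 0.00108 by edgeR's quasi-likelihood test) in sub-SCI, -1.54 ± 0.37 (adjusted p = 0.00127) in +PBS-1w, -1.48 ± 0.43 (adjusted p = 0.00961) in +PBS-2w and -1.13 ± 0.33 (adjusted p = 0.00631) in +PBS-4w, which is 2.19- to 2.91-fold lower. Without the replicate 1 libraries the call at 2 wpt was lost (-1.18, adjusted p = 0.107, with a range over its alternatives from 6.04e-11 to 0.177), and the others held. It was also lost without +PBS-2w replicate 1 (-1.15, adjusted p = 0.177).

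Mfsd2a was 27.9, 19.8 and 23.5 CPM in +MSC-1w, 30.3, 37.5 and 41.5 CPM in +MSC-2w and 76.9, 33.7, 22.9 and 35.4 CPM in +MSC-4w. The +MSC-2w libraries lay above both +PBS-2w libraries and below Intact, and replicate 1 of +MSC-4w lay above every Intact library. The average +MSC vs. +PBS difference over the 3 weeks was 0.55 ± 0.22 (adjusted p = 0.073 by edgeR's quasi-likelihood test), which missed the threshold, and 0.34 (adjusted p = 0.358) without the replicate 1 libraries. Over its alternatives the adjusted p ran from 0.0271 to 0.358, and it was called without +PBS-1w replicate 2 (0.68, adjusted p = 0.0271), +PBS-4w replicate 1 (0.59, adjusted p = 0.0373) or +MSC-4w replicate 3 (0.62, adjusted p = 0.0378). Against Intact, Mfsd2a fell in +MSC-1w (-1.32 ± 0.36, adjusted p = 0.00832 by the same edgeR test). In +MSC-2w it had -0.70 ± 0.36 (adjusted p = 0.175) and in +MSC-4w -0.49 ± 0.32 (adjusted p = 0.262). The latter was -0.96 (adjusted p = 0.034) without the replicate 1 libraries, and its adjusted p ran from 0.0194 to 0.559 over all alternatives.

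Mfsd2a went against Cdh5 from library to library, with a Pearson r of -0.78 over the 26 libraries and -0.70 after the group means were taken out. It went with the 12 neuron markers (median r 0.81) and 10 oligodendrocyte markers (median r 0.76). The neuron markers fell in 12 of 12 cases in sub-SCI vs. Intact (median log2 fold change -3.02), where 61.4% of all genes were called. They rose in 12 of 12 in +MSC vs. +PBS over the 3 weeks (median 1.06), where 23.2% of all genes were called. The share of neurons in the Mfsd2a signal was not tested. Mfsd2a was also set against the mean log2 CPM of 4 endothelial genes (Tek, Tie1, Emcn and Esam) in the same library. On the log2 scale this ratio was 1.57 ± 0.11 (SD) in Intact and -1.07 ± 0.64 in sub-SCI. It was -0.85 ± 0.70 in +PBS-1w, -0.38 ± 0.55 in +PBS-2w and -0.11 ± 0.55 in +PBS-4w. With hUC-MSCs it was -0.17 ± 0.19 in +MSC-1w, 0.68 ± 0.35 in +MSC-2w and 0.73 ± 1.01 in +MSC-4w, the last ranging from -0.12 to 2.19. These reference genes changed too, Tie1 by 2.13 in sub-SCI vs. Intact. From Intact to sub-SCI the same ratio went from 3.71 to 2.67 for Tjp1 and from 3.64 to 2.29 for Slc2a1, neither of which was called by itself. For Ocln, called higher by itself, the ratio was -0.10 ± 0.31 in Intact and -0.31 ± 0.39 in sub-SCI. For Cdh5 it went from 0.45 ± 0.53 to 1.42 ± 0.37, for Plvap from -0.71 to -1.73 and for Kdr from 0.10 to -0.61.

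Slc2a1 encodes GLUT1, the glucose transporter of barrier endothelium, and had the highest level per kilobase of the 7 genes. It was 260, 309, 228 and 210 CPM in Intact and 230, 196 and 192 CPM in sub-SCI, overlapping ranges with a log2 fold change of -0.29 ± 0.20 (adjusted p = 0.224 by edgeR's quasi-likelihood test). In +PBS-2w, with 198 and 186 CPM, both libraries lay below Intact (-0.39 ± 0.23, adjusted p = 0.197). DESeq2 on the 2 groups called this difference (-0.38, adjusted p = 0.0496). The average difference of +MSC vs. +PBS was 0.11 ± 0.12 (adjusted p = 0.557). In +MSC-4w replicate 1 stood at 422 CPM while the other libraries were at 241, 229 and 257 CPM, and Slc2a1 and Mfsd2a were high in the same library. Over the 26 libraries the r of Slc2a1 with Mfsd2a was 0.65.

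Plvap, which forms the diaphragms of fenestrae and caveolae and is low in mature barrier vessels, had few counts and was called lower than Intact in the vehicle group at 4 wpt. It was 16.2, 10.8, 12.2 and 10.3 CPM in Intact and 6.92, 12 and 24.2 CPM in sub-SCI. It was 8.71, 7.87 and 6.77 CPM in +PBS-1w, 6.18 and 7.19 CPM in +PBS-2w, and 9.91, 7.59, 5.06 and 6.01 CPM in +PBS-4w. The 3 +PBS groups lay below all Intact libraries, and the sub-SCI libraries lay below, within and above the Intact range. Against Intact the log2 fold changes were 0.21 ± 0.32 (adjusted p = 0.579 by edgeR's quasi-likelihood test) in sub-SCI, -0.67 ± 0.33 (adjusted p = 0.0928) in +PBS-1w, -0.89 ± 0.38 (adjusted p = 0.072) in +PBS-2w and -0.79 ± 0.30 (adjusted p = 0.0326) in +PBS-4w, the last being called. DESeq2 on the 2 groups also called the difference at 1 wpt (-0.63, adjusted p = 0.00755) and 2 wpt (-0.87, adjusted p = 0.00132), and DESeq2 on all libraries that at 2 wpt (-0.89, adjusted p = 0.0433). With edgeR it was called at 1 wpt without sub-SCI replicate 3 (adjusted p = 0.043) and at 2 wpt without sub-SCI replicate 1 (adjusted p = 0.0387) or 3 (adjusted p = 0.0308). These were 2 of 35 alternatives at 1 wpt and 4 of 35 at 2 wpt, and the others did not call it. Without the replicate 1 libraries edgeR gave -0.57 (adjusted p = 0.0919) at 1 wpt, and -0.61 at 2 wpt with 1 library left in +PBS-2w. The call at 4 wpt was lost without Intact replicate 1 (-0.58, adjusted p = 0.135), Intact replicate 3 (adjusted p = 0.0522), +PBS-2w replicate 1 (adjusted p = 0.0501) or +PBS-4w replicate 2, 3 or 4 (adjusted p = 0.0505, 0.1 and 0.0818). With the replicate 1 libraries left out, Plvap rose in sub-SCI (0.74, adjusted p = 0.0234), the lowest of 35 alternatives whose highest was 0.759.

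From sub-SCI to +PBS-4w, Plvap was the 1 of 7 genes called (25.1% of all genes tested), with a log2 fold change of -1.0 ± 0.32 (adjusted p = 0.0253 by edgeR's quasi-likelihood test). It was -0.40 (adjusted p = 0.405) without sub-SCI replicate 3, the library at 24.2 CPM, -0.87 (adjusted p = 0.0727) without +PBS-4w replicate 3 and -0.93 (adjusted p = 0.064) without +PBS-4w replicate 4. It was -1.57 (adjusted p = 0.000673) without the replicate 1 libraries. In the +MSC groups Plvap was 8.20, 14.1 and 9.41 CPM at 1 wpt, 17.0, 8.74 and 9.66 CPM at 2 wpt and 10.3, 10.1, 7.69 and 8.34 CPM at 4 wpt. The ranges overlapped with those of +PBS at 1 and 4 wpt and lay above both libraries of +PBS-2w at 2 wpt. The average +MSC vs. +PBS difference was 0.54 ± 0.20 (adjusted p = 0.0578), not past the threshold, and under alternatives the adjusted p ran from 0.0235 to 0.191. It was called with DESeq2 on all libraries (0.53, adjusted p = 0.0372), with a term for replicate 1 (0.54, adjusted p = 0.0496) and without sub-SCI replicate 1 or 3, +PBS-4w replicate 1 or +MSC-2w replicate 2 (0.54, 0.54, 0.58 and 0.59). The genes most like Plvap over the 26 libraries were Spats2 (r 0.77), Cdhr1 (0.75), Cox4i2 (0.74), Cenpn (0.73) and Tpbg (0.73), looser than the likeness of any gene named for Cdh5.

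Kdr, the main signalling receptor for VEGF on endothelium, passed the test in no comparison with all libraries. It was 23.7, 28.4, 20.3 and 15.4 CPM in Intact and 20.4, 23.0 and 44.1 CPM in sub-SCI, a log2 fold change of 0.41 ± 0.33 (adjusted p = 0.283 by edgeR's quasi-likelihood test). In +MSC-2w it was 18.6, 9.40 and 10.2 CPM, a log2 fold change of -0.78 ± 0.34 against Intact (adjusted p = 0.113). It was -1.11 (adjusted p = 0.0334) without the replicate 1 libraries, -1.16 (adjusted p = 0.0357) without +MSC-2w replicate 1 and -0.75 (adjusted p = 0.0205) with DESeq2 on the 2 groups. In +PBS-4w vs. sub-SCI, Kdr had -0.66 ± 0.33 (adjusted p = 0.15), and -1.06 (adjusted p = 0.0171) without +PBS-4w replicate 2. Kdr and Cdh5 had an r of 0.41 over the 26 libraries, and with the 18 genes of endothelial identity the median r of Kdr was 0.32.

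Promoters from RefSeq (GRCr8) were found for 7 of the 10 genes. Those of Ocln, which rose, Plvap, which was lower at 4 wpt, and Kdr, which was not called, are shown with 250 bases before and 50 after the start, 5′ to 3′ on the gene's strand, to set their base composition and motifs side by side. Capitals mark matches to TAAACA (or TGTTTA on the other strand), the letters of a forkhead motif.
Ocln promoter, GRCr8 chr2:33441149-33441448, minus strand: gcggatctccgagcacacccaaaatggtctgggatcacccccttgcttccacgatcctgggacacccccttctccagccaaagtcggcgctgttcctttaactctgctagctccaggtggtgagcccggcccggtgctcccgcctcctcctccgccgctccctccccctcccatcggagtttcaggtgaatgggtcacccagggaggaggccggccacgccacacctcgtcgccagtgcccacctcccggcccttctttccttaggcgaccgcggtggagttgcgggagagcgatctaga
Plvap promoter, GRCr8 chr16:18231230-18231529, minus strand: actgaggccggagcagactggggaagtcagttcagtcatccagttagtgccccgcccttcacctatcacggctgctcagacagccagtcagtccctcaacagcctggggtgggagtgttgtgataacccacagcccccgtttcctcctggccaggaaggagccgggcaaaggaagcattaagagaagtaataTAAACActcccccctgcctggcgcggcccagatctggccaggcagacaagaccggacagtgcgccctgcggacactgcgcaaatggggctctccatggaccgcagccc
Kdr promoter, GRCr8 chr14:32571813-32572112, plus strand: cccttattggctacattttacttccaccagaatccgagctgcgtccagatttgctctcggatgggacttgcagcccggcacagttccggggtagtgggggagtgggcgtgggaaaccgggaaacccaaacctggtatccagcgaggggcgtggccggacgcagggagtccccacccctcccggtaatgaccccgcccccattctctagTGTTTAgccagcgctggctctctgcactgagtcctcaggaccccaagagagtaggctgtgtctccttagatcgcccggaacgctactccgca
Plvap and Kdr held 1 match each and Ocln none, where 13.7% of 33469 promoters held one. None of the 3 held CGGAAG (ETS, 16.6% of promoters), CTTTGA (TCF/LEF, 16.1%) or ACAAAG (SOX, 18.8%) on either strand. Of the promoters found but not shown, that of Tjp1 held 1 TCF/LEF match and 2 SOX matches. Those of Cldn5, Slc2a1 and Abcb1a held no match to any of these motifs. The GC share was 65.3% for Ocln and 61% for Plvap and for Kdr. No entry was found for Pecam1, Cdh5 and Mfsd2a.

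The wider gene lists around the members were mixed after injury. Of 18 genes of endothelial identity, 11 rose and 2 fell in sub-SCI vs. Intact (median log2 fold change 0.97), where 61.4% of all genes were called. In +PBS-4w vs. Intact 8 rose and 2 fell, near the 52.6% of all genes called there. In sub-SCI, Tie1, an orphan receptor of the angiopoietin pathway, rose by a log2 fold change of 2.13 ± 0.18 (adjusted p = 2.46e-09 by edgeR's quasi-likelihood test), and Fli1, Eng and Cd34 by 2.35, 2.17 and 2.23. S1pr1, a receptor that stabilises endothelial contacts and is also found on astrocytes, fell by 1.00. In +MSC vs. +PBS over the 3 weeks, 3 of the 18 fell, with Tie1 at -0.45 ± 0.11 (adjusted p = 0.00592) and Eng at -0.41, and S1pr1 rose by 0.39. Such counts were no higher than the 23.2% of all genes called in that comparison.

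Sprouting, leakage and leukocyte adhesion genes rose in 10 of 14 cases and fell in 1 in sub-SCI vs. Intact, and 6 fell and 1 rose in +MSC vs. +PBS. Icam1, the adhesion molecule for leukocytes, went up by 2.87 ± 0.25 (adjusted p = 5.00e-09 by edgeR's quasi-likelihood test) and was 0.66 lower on the log2 scale with hUC-MSCs (-0.66 ± 0.15, adjusted p = 0.00406). Of the 13 VEGF and angiopoietin genes, 6 rose and 3 fell after injury and 3 fell with hUC-MSCs. Angpt2, which loosens endothelial contacts, was among both, with 1.75 ± 0.45 (adjusted p = 0.00192) and -1.04 ± 0.28 (adjusted p = 0.0107). All 8 tested genes of the vascular basement membrane rose in sub-SCI, Col4a1 by 3.11 ± 0.26, and 6 of 8 fell with hUC-MSCs, Col4a1 by 0.92 and Nid2 by 1.25. Of 13 pericyte and smooth muscle markers, 7 rose and 2 fell in sub-SCI, and 3 fell with hUC-MSCs. Of all genes tested, 61.4% were called in sub-SCI vs. Intact and 23.2% in the average of +MSC vs. +PBS. The counts of the pericyte list and of the VEGF and angiopoietin list stood near these shares.

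Genes nearer the barrier itself went both ways. Of 13 other junction genes, 5 rose and 6 fell in sub-SCI vs. Intact, with Cgn, cingulin of tight junctions, at -2.38 ± 0.25 (adjusted p = 4.53e-08 by edgeR's quasi-likelihood test) and Lsr of tricellular junctions at 1.20 ± 0.27. In +MSC vs. +PBS, 1 rose and 4 fell, with Cgn up by 0.54 and Lsr at -0.79. Of 15 other barrier transporters, 4 rose and 5 fell, and Slc7a1, a carrier of cationic amino acids, was at -1.40 ± 0.13 after injury and 0.46 ± 0.08 with hUC-MSCs (adjusted p = 0.000631), where 1 of the 15 rose and 1 fell. Of 15 genes of Wnt and Norrin signalling, 5 rose and 4 fell after injury, and 1 rose and 6 fell with hUC-MSCs. The Wnt effector Lef1 had 1.38 ± 0.15 after injury and -0.33 ± 0.10 with hUC-MSCs (adjusted p = 0.0156), while the ligand Wnt7a was at -1.39 ± 0.34 and 0.54 ± 0.20 (adjusted p = 0.0601). Of 8 genes of astrocyte endfeet 5 fell after injury and 3 rose with hUC-MSCs, among them the potassium channel Kcnj10, at -2.16 ± 0.30 and 0.69 ± 0.17 (adjusted p = 0.00784). In sub-SCI vs. Intact 61.4% of all genes were called and in the average of +MSC vs. +PBS 23.2%, so that the counts of these lists stand beside a high background.

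**Figure D4:**
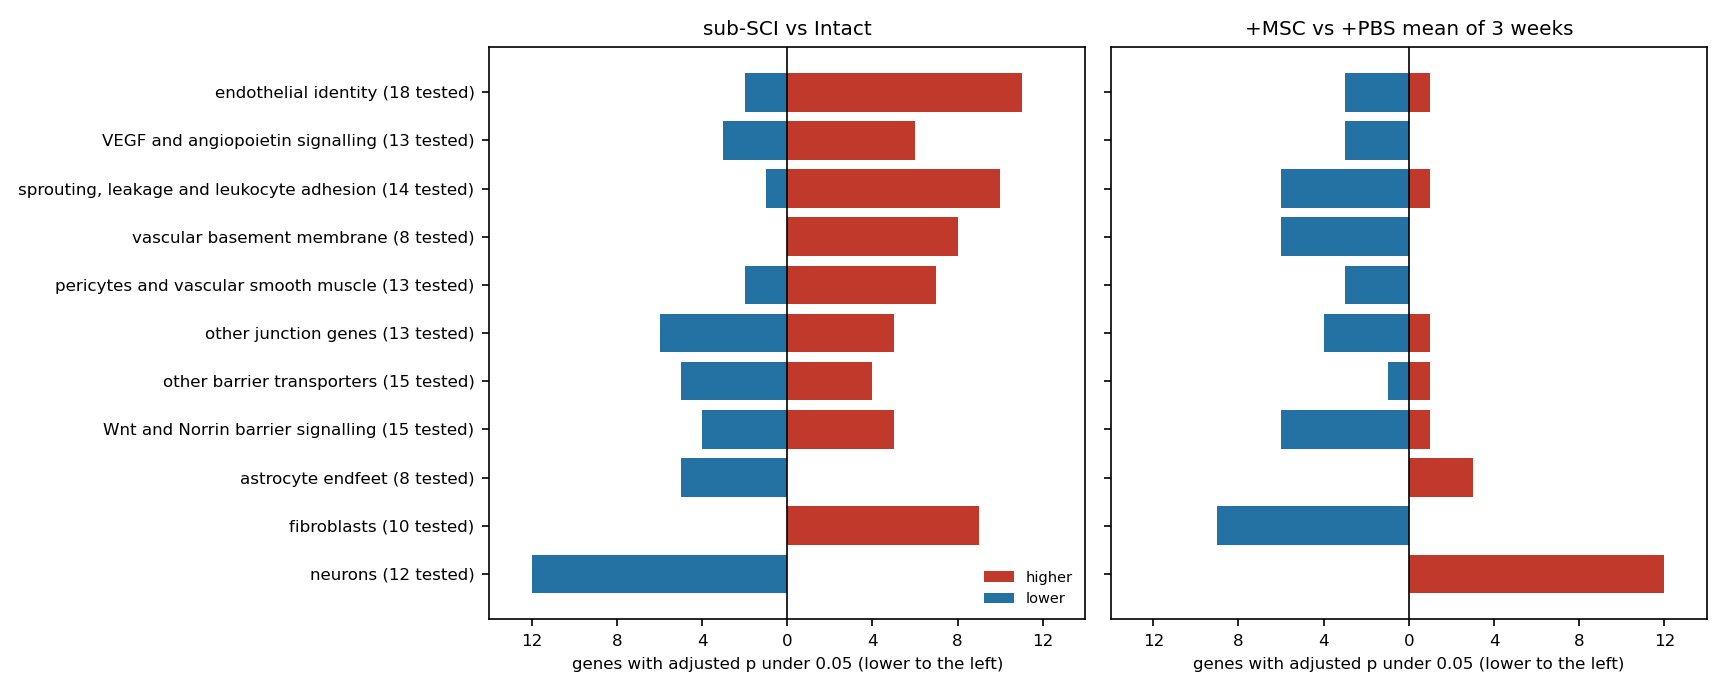
Number of genes with an adjusted p under 0.05 (horizontal axis, higher to the right and lower to the left) for each gene list (vertical axis, with the number tested) in sub-SCI vs. Intact and in +MSC vs. +PBS averaged over 3 weeks. All 8 basement membrane genes are higher in sub-SCI and 6 are lower with hUC-MSCs, while the junction and transporter lists have genes on both sides.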

How the data were processed

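RNA sequencing of 26 rat spinal cord libraries in 8 groups was used, and groups were taken from the sample titles. By the submitters' processing notes and the methods, the authors trimmed reads with Trim Galore 0.5.0, set aside human reads found by HISAT2 2.1.0 (GRCh38), mapped what was left to the rat genome, kept proper pairs with SAMtools 1.9 and used featureCounts 1.6.4. The table deposited by the authors holds counts, one whole number for each gene and library, not normalized. The annotation release and the strand setting are not given in the sources used here, so that overlapping genes are uncertain, and removing human reads may also remove reads of conserved rat exons, which was not tested. Depth was 19496602 to 43468509 counts per library, and no 2 libraries had identical counts.

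The computations used edgeR 4.0.16 (R 4.3.3). The 17990 genes kept by filterByExpr were scaled by TMM and fitted in 1 model with 8 groups and no covariates (glmQLFit, glmQLFTest), with Benjamini-Hochberg adjustment. DESeq2 1.42.0, other scalings and filters, a replicate block, a term for replicate 1 and leaving out libraries were alternatives. Level ratios and correlations used log2 CPM with a prior count of 2. The limit for genes without counts is 3 counts and covers counting error only. The scripts were tested on simulated data. The members and lists were chosen with earlier results of these data known. Genes outside the 10 were named by rule: from each list, the 4 with the smallest adjusted p in sub-SCI vs. Intact and the 2 in +MSC vs. +PBS, and the 5 most like Cdh5 and Plvap (for Cldn5, without counts, no likeness could be computed). No table of proteins was used.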

Additional observations from a re-analysis of the deposited data

Results flagged for a closer look

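In groups of 4 libraries, the library farthest from the others was looked for by Dixon's criterion in 39 sets of values, and 3 stood out, where chance gives about 1 in 20. Slc2a1 in +MSC-4w replicate 1 was at 422 CPM, above the other 3 libraries of its group at 229 to 257 CPM. The log2 ratio of Plvap to Cdh5 was -0.0524 in Intact replicate 1, high for its group, and -2.19 in +PBS-4w replicate 1, also high for its group. All 3 are replicate 1 libraries, and in both of the latter Cdh5 was the lowest of its group, at 16.8 and 45.3 CPM. The cause was not tested.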

How the results depend on the processing

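The average difference of Cdh5 between +MSC and +PBS, and the changes of Cdh5, Ocln and Mfsd2a in sub-SCI, +PBS-1w and +PBS-4w vs. Intact, kept their direction and their side of the threshold under all alternatives run. In the average of +MSC vs. +PBS, 1 member was called, against 2 with DESeq2 on all libraries, 3 with a replicate block, 3 with a term for replicate 1 and 1 to 5 when 1 library was left out (5 without +PBS-4w replicate 1). In +MSC-2w vs. +PBS-2w, 0 became 1 with DESeq2 on all libraries or on the 2 groups and without the replicate 1 libraries, which leaves 1 library in +PBS-2w. In +MSC-4w vs. +PBS-4w, 0 became 2 without the replicate 1 libraries and 0 to 3 without 1 library (3 without +PBS-4w replicate 1). Against Intact, the 3 of +PBS-2w became 5 with DESeq2 on the 2 groups and 1 to 4 without 1 library (1 without +PBS-2w replicate 1). The 1 of +MSC-2w became 3 with DESeq2 on the 2 groups, 2 without the replicate 1 libraries and 0 to 2 without 1 library. The 1 of +MSC-4w became 2 with total counts without TMM, with a replicate block or with a term for replicate 1, 3 without the replicate 1 libraries and 0 to 3 without 1 library. Leaving out 1 library gave 2 to 3 for +MSC-1w, 3 to 4 for +PBS-1w and 3 to 5 for +PBS-4w vs. Intact. In +PBS-4w vs. sub-SCI, 1 became 0 with DESeq2 on the 2 groups, 2 without the replicate 1 libraries and 0 to 2 without 1 library. The cause was not tested. Same-numbered libraries did not deviate together in every pair (r of +MSC with +PBS from -0.01 to 0.13 at 1 wpt, -0.08 to -0.05 at 2 wpt and 0.02 to 0.23 at 4 wpt, and with Intact from -0.09 to 0.32), so that the numbers were not taken to pair the samples, although replicate 1 had an r of 0.22 to 0.32 in 5 of 7 comparisons with Intact. With the replicate block Cdh5 was at -1.22 (adjusted p = 0.00248 by edgeR), Mfsd2a at 0.59 (adjusted p = 0.0474) and Ocln at -0.33 (adjusted p = 0.0269) in the average of +MSC vs. +PBS, Slc2a1 at -0.53 (adjusted p = 0.0428) in +PBS-2w vs. Intact and Ocln at 0.46 (adjusted p = 0.0342) in +MSC-4w vs. Intact. It changed no other call.

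Of the log2 fold changes under alternatives, 3041 kept their direction and their side of the threshold, 48 came to be called, 25 lost a call and 50 changed sign, 0 of the last being called with all libraries. Slc2a1 in +PBS-1w vs. Intact was -0.0766 with the replicate block, -0.0211 with the term for replicate 1 and -0.00995 without the replicate 1 libraries. In +PBS-4w vs. Intact it was -0.0154 with DESeq2 on all libraries, -0.0335 with DESeq2 on the 2 groups, -0.0154 with median-of-ratios size factors, -0.00603 with the term for replicate 1 and -0.0465 without the replicate 1 libraries. It was 0.010 in +MSC-2w vs. Intact with total counts and -0.0285 in +MSC-4w vs. Intact without the replicate 1 libraries. Kdr in +PBS-1w vs. Intact was 0.0682 with total counts, 0.0235 with no filter, 0.0308 with at least 10 counts in every library and 0.12 without the replicate 1 libraries, and in +PBS-4w vs. Intact 0.000895 without these. Tjp1 in +MSC-1w vs. +PBS-1w was 0.0075 with total counts, Ocln in +PBS-4w vs. sub-SCI -0.0034 with the replicate block, and Plvap in +MSC-1w vs. Intact 0.11 without the replicate 1 libraries. When 1 library was left out, log2 fold changes ran across 0 for Cdh5 in +PBS-4w vs. sub-SCI (-0.0677 to 0.59), Ocln there (-0.0578 to 0.24) and Mfsd2a in +MSC-1w vs. +PBS-1w (-0.0667 to 0.63). They did so for Kdr in +MSC-4w vs. +PBS-4w (-0.43 to 0.20) and, against Intact, in +PBS-1w (-0.17 to 0.19), +PBS-4w (-0.65 to 0.00543) and sub-SCI (-0.0131 to 0.62), and for Plvap in +MSC-2w (-0.43 to 0.11) and sub-SCI (-0.39 to 0.55). For Slc2a1 the ranges were -0.13 to 0.0932 in +MSC-2w, -0.0573 to 0.32 in +MSC-4w, -0.17 to 0.22 in +PBS-1w and -0.0780 to 0.16 in +PBS-4w vs. Intact, and -0.0579 to 0.28 in +MSC-4w vs. +PBS-4w. For Tjp1 they were -0.12 to 0.12 in +MSC-1w vs. +PBS-1w, -0.00702 to 0.23 in +PBS-1w vs. Intact and -0.00813 to 0.10 in sub-SCI vs. Intact. With counts of 113 to 713, Plvap was the least deeply counted of the 7 genes.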

Other observations

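The other marker lists moved as follows. Of 12 markers of microglia and macrophages, 11 rose in sub-SCI vs. Intact and 3 fell in +MSC vs. +PBS over the 3 weeks by edgeR's quasi-likelihood test, and their summed level went from 332 to 669 CPM in Intact to 9774 to 11645 CPM in sub-SCI. Of 8 astrocyte markers 5 fell in sub-SCI and 2 rose with hUC-MSCs, and of 10 oligodendrocyte markers 9 fell in sub-SCI and 1 rose with hUC-MSCs. Of 5 lymphatic endothelial markers 3 rose and 1 fell after injury, of 8 Schwann cell markers 1 rose and 1 fell, and of 4 platelet markers 1 rose and 1 fell. The summed level of 5 red blood cell genes ran from 143 to 2147 CPM in Intact and from 805 to 989 CPM in sub-SCI, with none of the 5 called after injury or with hUC-MSCs. Of all genes tested, 61.4% were called in sub-SCI vs. Intact and 23.2% in +MSC vs. +PBS over the 3 weeks. The astrocyte counts after injury and with hUC-MSCs, and the microglia and macrophage count with hUC-MSCs, stand near these shares.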
